A study of Mus musculus with 6 samples.

Results

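The genes described here are the simple epithelial keratins *Krt7*, *Krt8*, *Krt18* and *Krt19* and a set of genes named for mesothelium, *Upk3b*, *Upk1b*, *Lrrn4*, *Msln* and *Pkhd1l1*. All 9 are among the 28262 genes listed in the count table, and 8 of them passed the filter on low counts and were tested, with *Krt7* left out. They were chosen by name because *Krt19*, *Upk3b* and *Pkhd1l1* had been seen to have reads almost solely in knockout libraries, so the difference between the genotypes in these 9 genes is given as a description and without a test. RNA-seq was made from cultured Sertoli cells of 20-day-old C57BL/6 mice, with 3 libraries labelled PA1flox/flox, which carry floxed alleles and served as the control, and 3 labelled PA1-/-. In the PA1-/- mice the floxed alleles are deleted by a Cre recombinase under the *Amh* promoter, which acts in Sertoli cells, so any other cell left in the culture keeps its PA1. PA1 is a subunit of the MLL3/4 histone methyltransferase complexes. Both groups were otherwise untreated and were cultured at 34 °C, and the labels do not say how many animals stand behind a library, so p-values measure the spread between these libraries, which may be technical. The targeted gene itself was not analysed here, and genotypes are those of the labels.

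Keratins form intermediate filaments as pairs of a type I and a type II chain, and in simple, single-layered epithelia these are mainly K18 and K19 (type I) with K8 and K7 (type II). Adult Sertoli cells build their intermediate filaments from vimentin, while *Krt18* and *Krt8* are known from immature Sertoli cells. Mesothelium is the flat epithelium that lines body cavities, including the one around the testis. It carries simple keratins together with surface proteins such as mesothelin (*Msln*) and uroplakin 3b (*Upk3b*).

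The promoters of 5 of the 9 genes were matched by symbol in a RefSeq table of the build used for the counts (GRCm38.p6), namely *Krt7*, *Krt8*, *Krt18*, *Upk3b* and *Lrrn4*. A total of 4 are shown here, since *Upk3b* and *Lrrn4* had more reads in PA1-/- libraries, whereas the neighbouring *Krt8* and *Krt18* differed from each other. Each runs 5′ to 3′ from 250 bases before to 30 bases after the annotated start, and capitals mark a TATAAA on either strand.
*Upk3b*, chr5:136038246-136038525, plus strand: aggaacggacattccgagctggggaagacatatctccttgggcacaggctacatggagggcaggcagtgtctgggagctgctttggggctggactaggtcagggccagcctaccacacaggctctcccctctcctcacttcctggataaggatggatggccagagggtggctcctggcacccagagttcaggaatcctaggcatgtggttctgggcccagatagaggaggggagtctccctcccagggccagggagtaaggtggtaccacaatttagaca
*Lrrn4*, chr2:132880833-132881112, minus strand: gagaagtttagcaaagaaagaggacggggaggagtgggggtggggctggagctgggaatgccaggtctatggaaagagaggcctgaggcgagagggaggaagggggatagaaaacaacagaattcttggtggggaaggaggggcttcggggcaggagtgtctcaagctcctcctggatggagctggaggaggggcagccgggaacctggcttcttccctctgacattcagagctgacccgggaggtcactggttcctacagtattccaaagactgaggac
*Krt8*, chr15:102004313-102004592, minus strand: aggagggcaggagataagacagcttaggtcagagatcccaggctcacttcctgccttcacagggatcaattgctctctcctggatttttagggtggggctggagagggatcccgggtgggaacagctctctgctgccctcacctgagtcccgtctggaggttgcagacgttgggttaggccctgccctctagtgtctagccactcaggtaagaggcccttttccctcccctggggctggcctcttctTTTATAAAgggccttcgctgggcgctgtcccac
*Krt18*, chr15:102027966-102028245, plus strand: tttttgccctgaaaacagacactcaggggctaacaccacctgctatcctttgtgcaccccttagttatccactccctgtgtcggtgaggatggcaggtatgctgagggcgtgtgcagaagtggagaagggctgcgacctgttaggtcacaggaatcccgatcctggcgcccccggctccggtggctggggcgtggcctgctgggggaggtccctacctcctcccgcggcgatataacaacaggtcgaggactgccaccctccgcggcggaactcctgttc
The letters TATAAA stood in the *Krt8* window, at the annotated start, and in 13.7% of 27025 promoters of the same length. The AP-1 letters TGANTCA were in none of the 5 windows and in 7.57% of all, and the GC box letters GGGCGG were in the *Krt7* window alone and in 34.9% of all. Both strands were read. The letters TATAAA overlapped their own reverse complement in the *Krt8* window. A match or its absence says only which letters stand in the window.

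Total counts ranged from 14051353 to 16231443 in PA1flox/flox and from 13203757 to 15247587 in PA1-/- libraries, and at these depths a count of 3, taken as the floor, was 0.185 to 0.230 CPM (counts scaled to the library total). The replicates were unevenly spaced. PA1flox/flox replicates 1 and 3 varied by a biological coefficient of variation of 3.59%, whereas replicate 2 differed from them by 18.52% and 18.44%. PA1-/- replicates 1 and 2 varied by 2.41%, whereas replicate 3 differed from them by 22.20% and 22.02%. With the close pairs summed into 1 sample each, 20 of the 44 calls among the listed and neighbouring genes below were lost, and those of the epithelial and filament genes are given in place. The Sertoli cell label was checked with 20 marker genes, of which 18 were tested. *Sox9* (3166 to 5499 counts), *Wt1* (4484 to 6233 counts), *Dhh* (4394 to 6322 counts) and *Cldn11* (10212 to 17774 counts) were abundant in all 6 libraries, whereas *Rhox5* and *Trf* had at most 16 and 6 counts. A gene was called when edgeR's quasi-likelihood test gave a Benjamini-Hochberg adjusted p below 0.05 and its log2 fold change reached 1 in either direction. Of all 14919 tested genes, 5.44% were so called higher and 6.56% lower in PA1-/- cells.

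The 9 genes did not move as 1 group. *Krt19*, *Upk3b* and *Pkhd1l1* went from a few reads to well above the floor, *Lrrn4* was 3.98-fold higher in summed counts, *Krt18* was modestly higher, *Krt8* was lower, *Upk1b* and *Msln* overlapped between the genotypes, and *Krt7* was at or under 1 count throughout. By the thresholds above, 4 of the 8 tested genes were called higher (edgeR and DESeq2 alike) and 0 lower (1 at an unadjusted p under 0.05, and 0 by DESeq2), beside the 5.44% and 6.56% of all tested genes. Nothing is read from these counts, since the genes were picked on the same comparison. Of the 3 genes that led to the choice, each had at least 1 read in every control library. *Krt19* was at or under the floor of 3 counts in all of them, *Pkhd1l1* was above it in 1, and *Upk3b* was above it in all 3, so expression of *Krt19* in control cells is not shown at this depth.

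**Figure D1:**
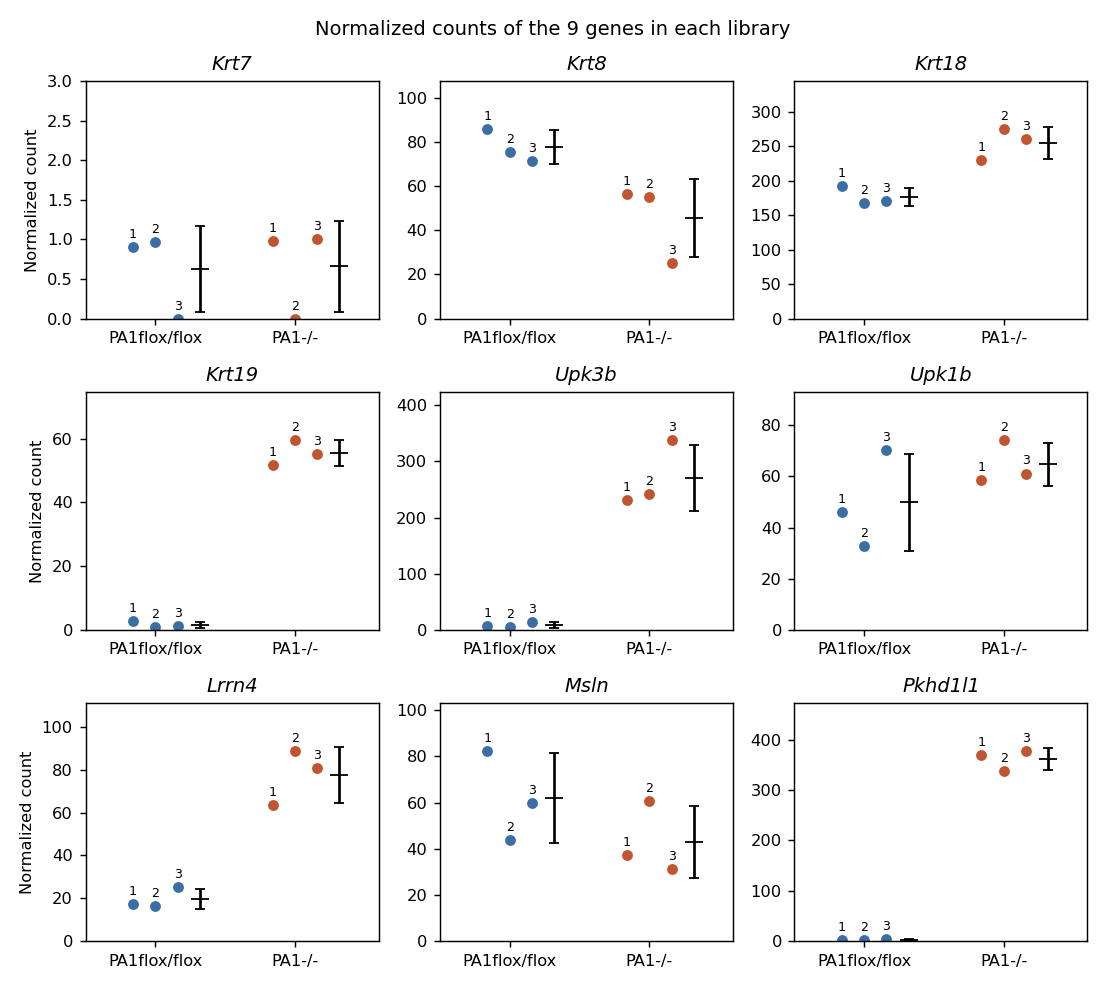
Normalized counts (y axis, linear from 0, a separate scale for each gene) of the 9 genes in 3 PA1flox/flox (blue) and 3 PA1-/- (orange) libraries, numbered by replicate, with the mean and SD as a black bar. *Krt18*, *Krt19*, *Upk3b*, *Lrrn4* and *Pkhd1l1* lie higher in every PA1-/- library, *Krt8* lies lower, and *Upk1b*, *Msln* and *Krt7* overlap. Of all tested genes, 26.3% lie higher and 26.1% lower in this way.

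*Krt19* encodes the smallest type I keratin, found in ductal and mesothelial epithelia (ENSMUSG00000020911, GRCm38 chromosome 11 from 100140810 to 100148665). It had 3, 1 and 1 counts in PA1flox/flox replicates 1, 2 and 3, and 53, 53 and 55 counts in PA1-/- replicates 1, 2 and 3. All PA1flox/flox libraries were at or under the floor, and the 3 PA1-/- libraries lay close together. In normalized counts (counts scaled to a common library size) this was 1.58 ± 0.988 against 55.5 ± 4.002 (SD, n = 3 each). The ratio of the summed counts was 34.2 (95% exact interval from 14.4 to 107, counting error only), and the fitted log2 fold change was 5.00 (standard error 0.35), and 5.62 without PA1flox/flox replicate 1.

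*Krt18*, the usual type I partner of *Krt8*, was the most abundant keratin of both genotypes (ENSMUSG00000023043, chromosome 15 from 102028216 to 102032026). It had 192, 168 and 171 normalized counts in the PA1flox/flox replicates and 230.4, 276 and 261 in the PA1-/- replicates. The ranges did not overlap, as for 52.4% of all tested genes. The means were 177 ± 12.99 and 256 ± 23.2 (SD, n = 3 each), and the log2 fold change was 0.53 (standard error 0.11).

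*Krt8*, the type II partner, lies next to *Krt18* on the other strand (ENSMUSG00000049382, chromosome 15 from 101996711 to 102004342), and their starts are 23.9 kb apart. Its normalized counts were 86.1, 75.5 and 71.3 in PA1flox/flox and 56.6, 55.2 and 25.0 in PA1-/- cells. Every PA1-/- library was lower, and replicate 3 stood well below the other two. The means were 77.6 ± 7.61 and 45.6 ± 17.8 (SD, n = 3 each). The log2 fold change was -0.77 (standard error 0.31), and -0.47 without PA1-/- replicate 3. The smooth muscle genes *Cnn1* and *Des*, which mark peritubular myoid cells, had 420 and 484 counts in that same library, against 22 to 62 and 41 to 153 counts in the other five. Their part in the *Krt8* value was not tested. *Krt8* and *Krt18* are known to have near-identical pseudogenes, so their counts are uncertain where reads could be split, although the 1 such gene listed, *Krt8-ps*, had at most 1 count in any library.

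*Krt7*, a type II keratin of ductal and mesothelial epithelia, had 1, 1 and 0 counts in PA1flox/flox and 1, 0 and 1 counts in PA1-/- cells (ENSMUSG00000023039, chromosome 15 from 101411043 to 101430313). A difference was not detectable at this depth, and both genotypes were under the floor.

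Levels of different genes were compared as reads per kilobase of the Ensembl canonical transcript, scaled to library size (RPKM). *Krt18* stood at 8.38 ± 0.615 RPKM in PA1flox/flox and 12.1 ± 1.10 RPKM in PA1-/- cells, and *Krt8* at 2.70 ± 0.264 and 1.58 ± 0.619 RPKM (SD, n = 3 each). *Krt19* reached 2.40 ± 0.173 RPKM in PA1-/- cells, from 0.0681 ± 0.0426 RPKM, so that it passed the level of *Krt8* in all 3 PA1-/- libraries. *Krt19* made up 0.784% ± 0.425 of the type I total (*Krt18* plus *Krt19*) in PA1flox/flox cells and 16.5% ± 0.418 in PA1-/- cells (SD, n = 3 each). The type I total over the type II total (*Krt7* plus *Krt8*) was 3.06, 3.04 and 3.28 in PA1flox/flox replicates 1, 2 and 3, and 6.62, 8.16 and 16.6 in PA1-/- replicates 1, 2 and 3. The ratio was higher in every PA1-/- library, and the highest value came from the replicate with the low *Krt8* count. The type II keratin *Krt80* is not part of this total, and the ratio with it was not computed. It had 27, 24 and 13 counts in PA1flox/flox and 59, 69 and 57 in PA1-/- replicates, above the counts of *Krt8* in every PA1-/- library.

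**Figure D2:**
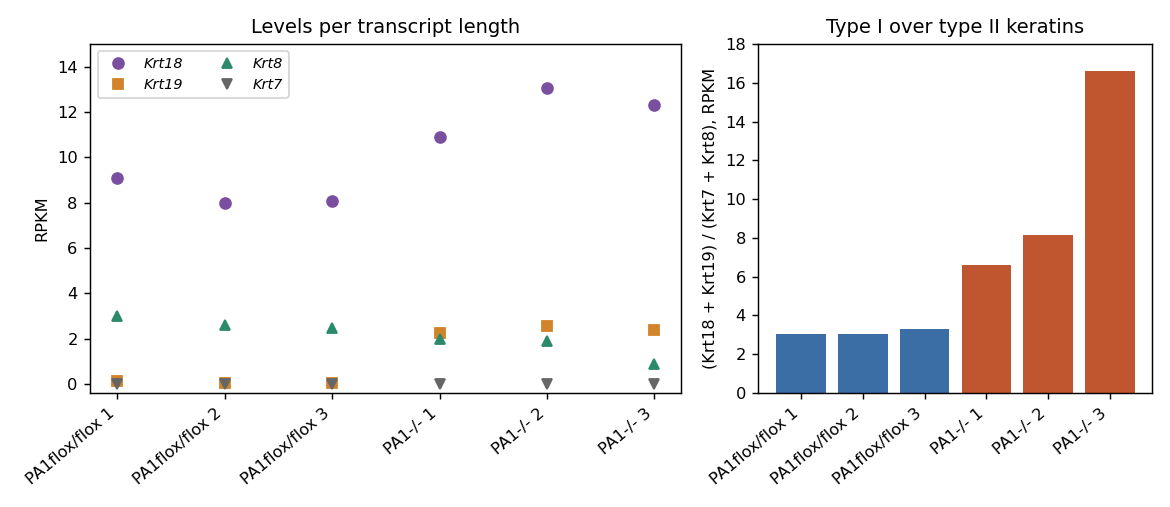
Left, RPKM (y axis) of *Krt18*, *Krt19*, *Krt8* and *Krt7* in each of the 6 libraries. Right, the summed RPKM of *Krt18* and *Krt19* divided by that of *Krt7* and *Krt8*, as bars from 0, which lies between 3.04 and 3.28 in PA1flox/flox (blue) and between 6.62 and 16.6 in PA1-/- (orange) libraries. The type II keratin *Krt80* is not included.

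*Pkhd1l1* encodes fibrocystin-L, a very large membrane protein related to the polycystic kidney disease protein fibrocystin (ENSMUSG00000038725, chromosome 15 from 44457553 to 44601369). It had 2, 2 and 4 counts in the PA1flox/flox replicates and 378, 299 and 377 counts in the PA1-/- replicates. In normalized counts this was 2.65 ± 1.34 against 361 ± 21.5 (SD, n = 3 each), the largest fold among the 9 genes. The log2 fold change was 7.05 (standard error 0.23), or 7.50 without PA1flox/flox replicate 3, and the ratio of summed counts was 139.9 (95% exact interval from 70.7 to 325). Its transcript is long (12949 bases), so these counts amounted to 1.90 ± 0.113 RPKM in PA1-/- cells (SD, n = 3), above 21.0% of 13013 tested protein-coding genes.

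*Upk3b*, a uroplakin-family membrane protein used as a mesothelial marker, was not absent from control cells (ENSMUSG00000042985, chromosome 5 from 136038496 to 136046487). Its counts were 7, 5 and 14 in PA1flox/flox and 236, 215 and 338 in PA1-/- replicates. In normalized counts the means were 8.62 ± 5.30 and 270.4 ± 59.4 (SD, n = 3 each). The log2 fold change was 4.98 (standard error 0.36), and 5.56 without PA1flox/flox replicate 3, with a ratio of summed counts of 32.2 (95% exact interval from 21.8 to 49.6). Per length it reached 5.21 ± 1.14 RPKM in PA1-/- cells (SD, n = 3), the highest level among the 5 chosen mesothelial genes.

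*Lrrn4*, a leucine-rich repeat membrane protein that is also used to mark mesothelium, had 17.2, 16.5 and 25.2 normalized counts in PA1flox/flox and 63.4, 89.0 and 81.2 in PA1-/- libraries (ENSMUSG00000043110, chromosome 2 from 132868305 to 132880891). The lowest PA1-/- value was above the highest PA1flox/flox value, as for 26.3% of all tested genes. The means were 19.6 ± 4.83 and 77.9 ± 13.1 (SD, n = 3 each), and the log2 fold change was 1.99 (standard error 0.25). Its level in PA1-/- cells was 0.664 ± 0.112 RPKM (SD, n = 3).

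*Msln*, the mesothelin precursor that gives the tissue its best known surface marker, was detected in both genotypes (ENSMUSG00000063011, chromosome 17 from 25748614 to 25754327). It had 82.5, 43.6 and 59.8 normalized counts in PA1flox/flox and 37.1, 60.8 and 31.1 in PA1-/- libraries, which overlap. Its means were 61.9 ± 19.5 and 43.0 ± 15.7 (SD, n = 3 each), and the fitted log2 difference was -0.53 (standard error 0.34).

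*Upk1b*, a tetraspanin of the uroplakin complexes, had 46.2, 32.9 and 70.3 normalized counts in PA1flox/flox and 58.6, 74.4 and 61.1 in PA1-/- libraries (ENSMUSG00000049436, chromosome 16 from 38773184 to 38800203). The groups overlapped. The means were 49.8 ± 18.9 and 64.7 ± 8.47 (SD, n = 3 each), and the fitted log2 difference was 0.38 (standard error 0.29). Ordered by RPKM in PA1-/- cells, the 9 genes ran *Krt18*, *Upk3b*, *Krt19*, *Pkhd1l1*, *Krt8*, *Upk1b*, *Msln*, *Lrrn4*, *Krt7*. Neighbours in that order whose mean ± SD ranges overlap are *Pkhd1l1* and *Krt8*, *Krt8* and *Upk1b*, *Upk1b* and *Msln*, and *Msln* and *Lrrn4*.

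Other genes known from mesothelium gave mixed values. Of 14 such genes outside the 9, 13 were listed and 7 were tested, of which 3 were called higher and 0 lower (edgeR, with 0 lower at an unadjusted p under 0.05 and 0 by DESeq2), beside 5.44% and 6.56% of all genes. *Bnc1*, a mesothelial transcription factor, had at most 2 counts in any library. *Gpm6a*, a membrane glycoprotein, had 2, 1 and 5 counts in PA1flox/flox and 6, 4 and 6 in PA1-/- cells. *Nkain4* had at most 3 counts, and *Slpi* had 1, 10 and 0 counts in PA1flox/flox and 0 in each PA1-/- library. *Cldn15* had 5, 2 and 1 counts against 2, 5 and 11, and *Rspo1* had 3, 1 and 5 against 3, 3 and 14. These 6 genes did not pass the low-count filter, and they range from 0 to 14 counts, whereas *Msln* had 31 to 91 counts.

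*Aldh1a2*, a retinoic acid synthesis enzyme, rose from 616, 680 and 505 to 2830, 2447 and 3523 counts (log2 fold change 2.37, standard error 0.13, edgeR adjusted p = 0.000108). *Ildr2* rose with a log2 fold change of 1.08 (edgeR adjusted p = 0.000444), and 0.99 without PA1flox/flox replicate 2. *Muc16*, the large mucin that binds mesothelin, had 5 to 7 counts in PA1flox/flox and 10 to 20 in PA1-/- cells (log2 fold change 1.41, edgeR adjusted p = 0.0237). Its call was lost without any 1 of 5 libraries (edgeR adjusted p from 0.0529 to 0.0881), all but PA1-/- replicate 2, with DESeq2 (adjusted p = 0.0778), with a replicate block (0.0549) and with the close replicates summed (0.0908). *Wt1*, *Pdpn* and *Tbx18* were not called (log2 fold changes 0.13, 0.63 and -0.52), nor was *Anxa8*, which had 41 counts in PA1-/- replicate 3 against 350 or more in the others. *Wt1* is also a Sertoli cell gene. The median log2 fold change of the 7 was 0.63, beside 0 for all tested genes. Their summed level, mostly *Wt1*, *Pdpn* and *Ildr2*, was 1096 to 1173 CPM in PA1flox/flox and 1861 to 1970 CPM in PA1-/- libraries. Whether a cell type of this kind takes part in the values of *Krt19* or *Upk3b* was not tested, and in bulk RNA more cells of a type and more RNA per cell cannot be told apart.

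Among markers of the rete testis and efferent ducts, the simple epithelia that drain the tubules, 5 of 10 were tested. *Foxj1*, a regulator of motile cilia, rose from 23 to 28 counts to 64 to 120 counts (log2 fold change 1.86, edgeR adjusted p = 0.00320), beside 5.44% of all genes called higher. The oestrogen receptor gene *Esr1* had 86, 76 and 83 counts in PA1flox/flox and 37, 32 and 47 in PA1-/- cells, just short of the fold threshold (log2 fold change -0.996, edgeR adjusted p = 0.00713). It was called lower with DESeq2's size factors, with a replicate block, and without PA1flox/flox replicate 1 or 2 or PA1-/- replicate 3 (log2 fold change -1.13). By the DESeq2 Wald test 0 were called lower, and by edgeR 0, with 1 at an unadjusted p under 0.05. *Pax2*, a kidney and duct transcription factor, had 3, 12 and 10 counts against 10, 24 and 13 and was not called (log2 fold change 0.995, edgeR adjusted p = 0.235). *Pax8* had 1 to 6 counts, and *Sox17* and *Lhx1* at most 2 counts and 1 count in any library. The list had a median log2 fold change of 0.60, and its summed level, mostly *Epcam*, was 27.5 to 31.5 CPM in PA1flox/flox and 39.6 to 44.7 CPM in PA1-/- libraries. Its part in the keratin values was not tested.

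A wider list of simple epithelium genes had calls in both directions. Of 23 genes, 20 were listed and 15 tested, 3 of which were called higher, 2 lower and 10 neither, beside 5.44% and 6.56% of all genes, with a median log2 fold change of 0.25. Those higher were the tight junction gene *Cldn3* (log2 fold change 2.995, edgeR adjusted p = 0.0115) and the epithelial transcription factors *Klf5* (2.24, edgeR adjusted p = 0.000881) and *Elf3* (1.75, edgeR adjusted p = 0.00455). *Cldn3* had 4, 2 and 4 counts in PA1flox/flox, near the floor, and 14, 17 and 47 in PA1-/- replicates. Those lower were the tight junction gene *Cldn7* (log2 fold change -2.39, edgeR adjusted p = 0.000379) and *Ap1m2*, a subunit of an epithelial sorting adaptor (-1.01, edgeR adjusted p = 0.0457). The *Ap1m2* call was lost without PA1flox/flox replicate 1 or 3 or PA1-/- replicate 1 or 2 (edgeR adjusted p from 0.0923 to 0.153). It was also lost with the DESeq2 Wald test (adjusted p = 0.106). In edgeR it was lost with a replicate block (adjusted p = 0.0857), without the low-count filter (0.0819) and with the close replicates summed (0.204). With the close replicates summed, *Cldn3* and *Elf3* were not called either (edgeR adjusted p = 0.0692 and 0.0586). *Cdh1* (E-cadherin) had 26 to 29 counts in PA1flox/flox and 14 to 22 in PA1-/- cells and was not called. *Epcam*, an epithelial adhesion molecule, had a log2 fold change of 0.60 (edgeR adjusted p = 0.00299), short of the fold threshold. *Spint1*, a serine protease inhibitor gene, was called higher without PA1-/- replicate 3 (log2 fold change 1.13, edgeR adjusted p = 0.00237). *Grhl2*, a master factor of epithelial identity, had at most 2 counts in any library.

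The list of desmosome and plakin genes includes those whose proteins anchor keratin filaments to the membrane. Of 14 genes 11 were tested, with 4 called higher and 0 lower (edgeR, 0 lower at an unadjusted p under 0.05 and 0 by DESeq2), beside 5.44% and 6.56% of all genes, and a median log2 fold change of 0.66. *Dsp* (desmoplakin) rose from 441, 354 and 345 to 824, 746 and 857 counts (log2 fold change 1.18, standard error 0.08, edgeR adjusted p = 0.000208). *Pkp2* (plakophilin 2) rose from 493, 411 and 339 to 1039, 887 and 828 counts (log2 fold change 1.24, edgeR adjusted p = 0.000644). The cadherin *Dsg2* (log2 fold change 1.98, edgeR adjusted p = 0.00266) and the plakin *Ppl* (1.78, edgeR adjusted p = 0.00689) rose as well. With the close replicates summed, *Dsg2* and *Ppl* were not called (edgeR adjusted p = 0.0509 and 0.0837). *Pkp4* (plakophilin 4) was just short of the fold threshold (log2 fold change 0.96, edgeR adjusted p = 0.000253) and was called with the close replicates summed (1.01) and without PA1-/- replicate 2 (1.03). *Macf1*, a plakin that links actin and microtubules, had a log2 fold change of 0.58 (edgeR adjusted p = 0.0423). *Jup*, *Plec* and *Dst*, which had at least 2291 counts in every library, had log2 fold changes of 0.30, 0.26 and -0.18 and were not called. The desmosomal plakophilin genes *Pkp1* and *Pkp3* had at most 2 counts.

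Of the 14 other keratin genes listed, 4 were tested, with 1 called higher and 1 lower, beside 5.44% and 6.56% of all genes. *Krt80*, a type II keratin, rose from 27, 24 and 13 to 59, 69 and 57 counts (log2 fold change 1.63, standard error 0.28, edgeR adjusted p = 0.00498). *Krt79* fell from 11, 11 and 10 to 4, 2 and 3 counts (log2 fold change -1.71, standard error 0.37, edgeR adjusted p = 0.0120), and DESeq2 did not call it (adjusted p = 0.0840), nor did edgeR with the close replicates summed (adjusted p = 0.0775). It failed the low-count filter without PA1flox/flox replicate 2. *Krt10* and *Krt20* were not called, and the keratins of stratified epithelium *Krt14*, *Krt17* and *Krt76* had at most 2 counts. Among 15 intermediate filament genes that are not keratins, 12 were tested and 2 were called higher, beside the same shares. *Lmnb1*, a nuclear lamin, rose from 971, 973 and 804 to 1810, 1611 and 2334 counts (log2 fold change 1.15, edgeR adjusted p = 0.000781), and the neurofilament gene *Nefl* rose with a log2 fold change of 1.85 (edgeR adjusted p = 0.00723, and 0.0657 with the close replicates summed). None of the 12 was called lower by edgeR or DESeq2 (0 at an unadjusted p under 0.05), although *Des* was without PA1-/- replicate 3 (log2 fold change -1.35, edgeR adjusted p = 0.00275). *Vim*, the main filament gene of Sertoli cells, had 25898 to 30156 counts in PA1flox/flox and 31863 to 36682 in PA1-/- cells, a log2 fold change of 0.35 (edgeR adjusted p = 0.0155) that was short of the fold threshold.

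Relatives of the mesothelial genes were mostly low. Of 9 such genes 3 were tested, 0 were called higher by edgeR (0 at an unadjusted p under 0.05), beside 5.44% of all genes, and *Lrrn2* was called lower (6.56% of all genes), with 50, 39 and 35 counts in PA1flox/flox and 8, 3 and 24 in PA1-/- cells (log2 fold change -1.74, edgeR adjusted p = 0.0487). Its call was lost without any 1 library other than PA1-/- replicate 3 (edgeR adjusted p from 0.0900 to 0.143), with the replicates of the same number as a block (0.0699) and with the close replicates summed (0.223). *Lrrn3* had 0, 0 and 1 counts in PA1flox/flox and 7, 8 and 3 in PA1-/- cells, and *Pkhd1*, the fibrocystin gene, had 0 counts in each PA1flox/flox library and 6, 1 and 0 in PA1-/- libraries. Neither passed the low-count filter, and *Lrrn3* was called higher by DESeq2 (log2 fold change 4.17, adjusted p = 0.0316) and by edgeR without the filter (3.84, adjusted p = 0.0265). *Upk1a*, another uroplakin tetraspanin, had 8 to 21 and 12 to 22 counts and was not called, and *Upk2* and *Upk3bl* had at most 1 count.

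**Figure D3:**
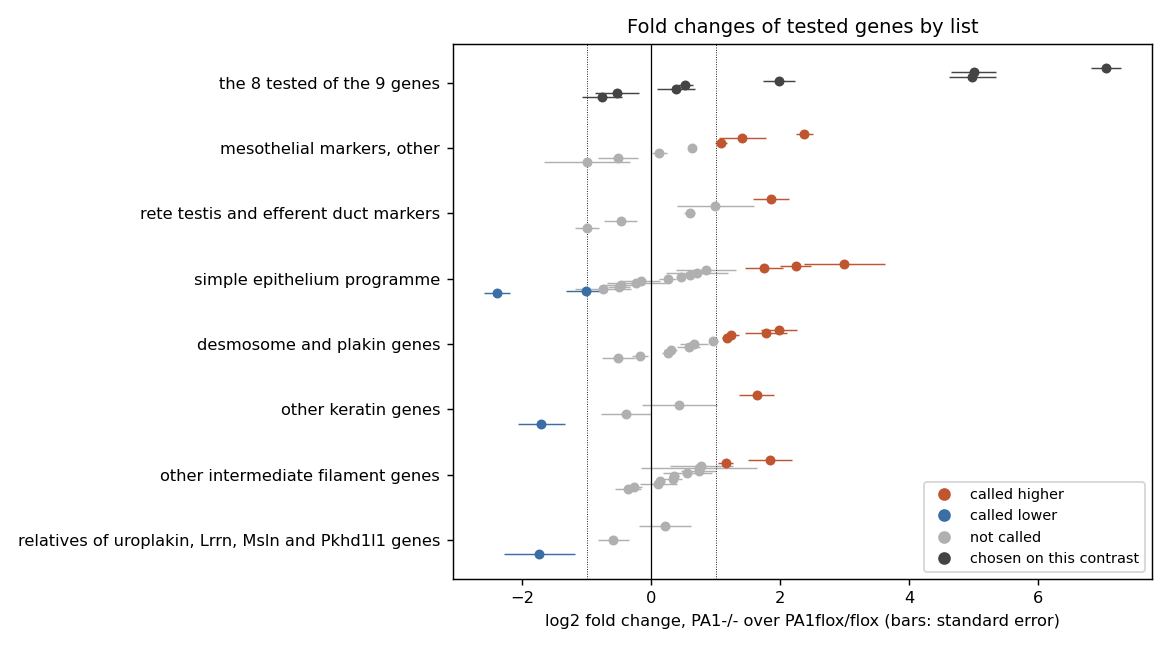
Fitted log2 fold changes (x axis) with standard errors for tested genes of each list (rows), in orange where called higher, blue where called lower and grey otherwise, with dotted lines at the fold threshold. The genes of the report, in dark grey because they were chosen on this comparison, run from -0.77 (*Krt8*) to 7.05 (*Pkhd1l1*), and of the desmosome and plakin genes 4 of 11 lie past the threshold on the higher side.

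Markers of the other cells that the culture could hold moved in both directions, beside 5.44% of all tested genes called higher and 6.56% lower, and their part in the values above was not tested. Of 7 tested macrophage genes *Adgre1*, *Cd68*, *Csf1r*, *Cd14*, *Ptprc* and *Lyz2* were called lower (summed level 60.3 to 70.9 CPM in PA1flox/flox and 10.7 to 12.5 CPM in PA1-/- libraries), and all 3 tested Leydig cell genes, *Cyp11a1*, *Star* and *Hsd3b1*, were called lower (794 to 911 and 165 to 288 CPM over the list). Of these the defining Leydig genes *Insl3* and *Cyp17a1* had at most 2 and 3 counts. Of 5 peritubular myoid genes *Acta2* and *Tpm2* were called higher (261 to 330 and 914 to 1357 CPM), *Tpm2* not without PA1-/- replicate 3 or PA1flox/flox replicate 2 (log2 fold change 0.82 and 0.98). The summed level is mostly *Acta2*. *Myh11* had 716, 497 and 553 counts in PA1flox/flox and 221, 146 and 1602 in PA1-/- replicates 1, 2 and 3, and without PA1-/- replicate 3 both *Myh11* and *Des* were called lower (log2 fold changes -1.58 and -1.35, edgeR adjusted p = 0.000484 and 0.00275). Of 5 germ cell genes *Ddx4* and *Kit*, with at most 29 counts, were called lower. The summed level of that list (194 to 221 and 108 to 202 CPM) is almost all *Uchl1*, which was not called, and *Dmc1* had a log2 fold change of 0.75 and was not called. *Kit* was not called with the close replicates summed (edgeR adjusted p = 0.0994), and *Ddx4* was not called without any 1 of PA1flox/flox replicates 1, 2 and 3 and PA1-/- replicate 1. Of 4 endothelial genes *Vwf* was called higher and *Pecam1* lower (116 to 122 and 63.9 to 101 CPM), *Vwf* not without PA1flox/flox replicate 1 or 3 or PA1-/- replicate 1 or 2. Of 18 Sertoli cell genes *Inha*, *Inhbb*, *Sox8* and *Gdnf* were called lower and 0 higher (4 at an unadjusted p under 0.05, 0 by DESeq2), and the *Inhbb* fold change of -1.003 was at the threshold. Without PA1-/- replicate 3, *Amh* was called lower and *Gata1* higher (log2 fold changes -2.16 and 1.18). With the close replicates summed, *Adgre1*, *Cd14*, *Star*, *Hsd3b1*, *Ddx4*, *Vwf*, *Pecam1*, *Sox8* and *Inhbb* were not called.

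The genes around the 9 were not chosen on their values. Within 200 kb on either side, 97 other genes were listed and 60 tested, of which 2 were called higher and 8 lower, beside 5.44% and 6.56% of all genes. The 2 higher were *Krt80*, 40.9 kb from *Krt7*, and *Igfbp6*, an insulin-like growth factor binding protein 112 kb from *Krt18* (log2 fold change 1.16, edgeR adjusted p = 0.00260, and 0.98 without PA1flox/flox replicate 2). Around *Krt19*, *Lrrn4* and *Pkhd1l1*, 12 genes were tested and 0 were called in either direction by edgeR or DESeq2, with 7 higher and 0 lower at an unadjusted p under 0.05. By adjusted p alone 6 of the 12 were higher (*Eif1*, *Ebag9*, *Nudcd1*, *Mcm8*, *Crls1* and *Trmt6*, log2 fold changes from 0.29 to 0.78), beside 18.2% of all tested genes, and 0 were lower, beside 17.1%. With the neighbours of *Upk3b* added, these were 6 higher and 1 lower of 23, so the 11 around *Upk3b* held 0 higher and 1 lower. *Chgb*, near *Lrrn4*, was called higher without PA1flox/flox replicate 1 (log2 fold change 2.09, edgeR adjusted p = 0.0421), and *Fermt1*, 23.5 kb from *Lrrn4* and with 1, 0 and 2 counts against 7, 5 and 9, without the low-count filter (2.76, edgeR adjusted p = 0.0390). Without PA1-/- replicate 3, *Rasa4* near *Upk3b* and *Nr4a1* near *Krt7* were called lower (log2 fold changes -1.27 and -1.26, edgeR adjusted p = 0.0198 and 0.000692). The nearest tested gene to *Pkhd1l1* was *Ebag9*, 18.3 kb away (log2 fold change 0.55, edgeR adjusted p = 0.00265), and the nearest to *Lrrn4* was *Crls1*, 1.52 kb away (0.29, edgeR adjusted p = 0.0171). Next to *Upk3b*, *Dtx2* at 5.62 kb had a log2 fold change of -0.10 (edgeR adjusted p = 0.505), and of 11 tested neighbours *Sh2b2* alone was called with all 6 libraries, as lower (-1.59, edgeR adjusted p = 0.000952). The other genes called lower were *Grasp* and *6030408B16Rik* near *Krt7*, *Krt79* near *Krt8* and *Krt18*, *Arhgap31* near *Upk1b*, and *Sox8*, *Mcrip2* and *Fbxl16* near *Msln*. The *Fbxl16* call was lost without PA1flox/flox replicate 1 or 3 or PA1-/- replicate 1 or 2 (edgeR adjusted p from 0.0590 to 0.0748). It was also lost with a replicate block (edgeR adjusted p = 0.0591) and with the close replicates summed (0.136). No listed gene overlaps any of the 9.

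**Figure D4:**
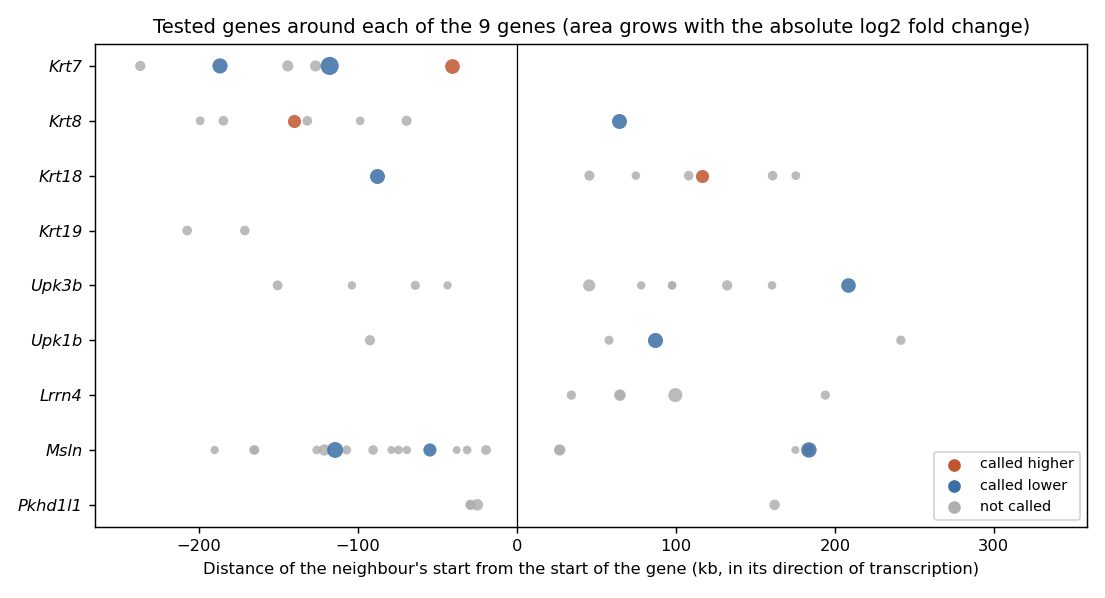
Start of each tested neighbouring gene relative to the start of the gene named on the y axis (x axis, kb, in the direction of its transcription), in orange where called higher, blue where called lower and grey otherwise, with point area growing with the absolute log2 fold change. In the fit plotted no gene around *Krt19*, *Lrrn4* or *Pkhd1l1* was called, and 3 around *Msln* were called lower.

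The profile of *Krt19*, *Upk3b* and *Pkhd1l1* over the 6 libraries was compared with that of every other tested gene, as the root mean square distance of log2 CPM values after centring each gene on its mean. Such genes are alike by selection, so their values are a description. The 10 nearest outside the 9 were *Epyc*, *Pcna-ps2*, *Gm15228*, *Lrp2*, *Mycl*, *Lrtm2*, *Ica1l*, *Tmem132d*, *Arid3c* and *Vat1l*, at distances from 0.515 to 0.746. Among the 9 genes, *Lrrn4* stood at 1.58 and the other four tested ones at 2.27 to 2.97. *Epyc*, the cartilage proteoglycan epiphycan, had 5, 5 and 3 counts in PA1flox/flox and 132, 78 and 172 in PA1-/- cells. *Lrp2* (megalin), an endocytic receptor of absorptive epithelia, had 123, 36 and 166 counts against 3457, 3180 and 1748, and *Mycl*, a MYC family factor, 78, 93 and 62 against 1312, 1061 and 1037. *Pcna-ps2* is a pseudogene of *Pcna*, so its counts are uncertain.

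*Krt19* was chosen for having few reads in control cells, so its own place among such genes is no result, and *Pkhd1l1* is left out of them by 1 count in PA1flox/flox replicate 3. Of the 9193 genes with at most 3 counts in each PA1flox/flox library, those with the highest lowest count in PA1-/- cells, besides *Krt19*, were *Nkx2-9*, *Hs3st5*, *Gabra2*, *Gjc3*, *Cdhr1*, *2610528A11Rik*, *Chrm1*, *Gm11702* and *Tenm2*. *Nkx2-9*, a homeobox gene, had 2, 2 and 0 counts in PA1flox/flox and 32, 37 and 27 in PA1-/- libraries. *Gabra2*, a GABA receptor subunit, had 2, 0 and 0 against 51, 74 and 23, and *Cdhr1*, a cadherin-related gene, 1, 3 and 3 against 104, 86 and 20. In all, 22 genes had at most 3 counts in each PA1flox/flox library and at least 10 in each PA1-/- library, as compared with 40 genes in the reverse direction. At a minimum of 50 counts these numbers were 1, which is *Krt19*, and 3.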

How the data were processed

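RNA was sequenced from 6 libraries of cultured Sertoli cells, 3 per genotype. The deposited values are raw counts per gene, which the authors made by aligning reads with HISAT2 2.1.0 to GRCm38 and counting with HTSeq 0.6.0, and the strand setting is not given in the sources used here. The authors' columns of fold changes and p-values were not used. Genes were kept by edgeR's filterByExpr (minimum count 10, minimum total 15), scaled by TMM (factors from 0.990 to 1.03) and fitted with the quasi-likelihood test (edgeR 4.0.16, limma 3.58.1, R 4.3.3) without a block, with Benjamini-Hochberg adjustment over 14919 genes. Normalized counts are counts divided by effective library size and multiplied by its mean. Transcript lengths came from a GRCm39 annotation by Ensembl ID. Intervals on count ratios are exact and, without molecular identifiers, cover counting error only. On simulated counts, 94.4% of 195 genes changed by a log2 fold of 2 were recovered, and 3.66% of calls were false. The simulated libraries were drawn independently, without the close pairs of replicates seen here. These shares therefore do not give the rate of false calls in these data.

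The genes and the lists were chosen with earlier results of these data known. Named were every chosen gene, called genes of the lists and of the neighbourhood, defining genes near 0, the 10 genes nearest in profile, and the 10 genes at 3 counts or fewer in every PA1flox/flox library with the highest lowest PA1-/- count. Uncalled list genes were picked for naming with their values in view. As alternatives, the following were run: DESeq2's size factors and Wald test (DESeq2 1.42.0), no low-count filter, no fold threshold, a replicate block, summing the close replicates, and leaving out each library.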

Additional observations from a re-analysis of the deposited data

How the results depend on the processing

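The log2 fold changes of the chosen genes, which are no test because the genes were picked on these libraries, ranged without 1 library from -0.96 to -0.47 for *Krt8*, 0.49 to 0.60 for *Krt18*, 4.75 to 5.62 for *Krt19*, 4.70 to 5.56 for *Upk3b*, 0.15 to 0.70 for *Upk1b*, 1.88 to 2.20 for *Lrrn4*, -0.85 to -0.27 for *Msln* and 6.84 to 7.50 for *Pkhd1l1*. Over all genes, 812 were called higher and 979 lower, against 428 and 455 with the close replicates (PA1flox/flox 1 and 3, PA1-/- 1 and 2) summed, 2718 and 2548 without the fold threshold, and 670 to 860 and 796 to 1216 without 1 library. Of 44 called genes of the lists and neighbourhood, 21 kept their call in every setting that tested them, 20 lost it with summed replicates, which leaves fewer samples, 7 with the replicate block, 5 with the DESeq2 Wald test, 2 without the low-count filter and 2 to 7 without 1 library.

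With summed replicates, 1 simple epithelium gene was called higher and 1 lower, 1 other intermediate filament gene higher, 0 relatives lower, 2 Sertoli, 0 germ cell and 1 Leydig gene lower, 0 endothelial genes higher and 0 lower, 0 other keratins lower, and 5 neighbouring genes lower. Without the fold threshold, 2 rete and efferent duct genes were called higher and 1 lower, 5 simple epithelium genes higher, 1 Sertoli gene higher and 7 lower, 2 endothelial genes lower, and 10 neighbouring genes higher and 18 lower. The replicate block gave 1 rete gene lower, 1 simple epithelium gene lower, 0 relatives lower, 1 germ cell gene lower, 0 endothelial genes higher and 0 other keratins lower. The DESeq2 Wald test gave 1 simple epithelium gene lower, 1 relative higher, 1 germ cell gene lower and 0 other keratins lower. DESeq2 size factors gave 1 rete gene lower, and no low-count filter gave 1 simple epithelium gene lower and 1 relative higher. Without 1 library, the counts ran from 1 to 3 for mesothelial genes higher, 0 to 1 for rete genes lower, 3 to 4 and 1 to 2 for simple epithelium genes higher and lower, 4 to 5 for desmosome genes higher, 0 to 1 for other intermediate filament genes lower, 0 to 1 for relatives lower, 0 to 1 and 3 to 5 for Sertoli genes higher and lower, 1 to 2 for germ cell genes lower, 1 to 2 and 0 to 2 for peritubular genes higher and lower, 6 to 8 for macrophage genes lower, 0 to 1 for endothelial genes higher, 0 to 1 for other keratins lower, and 1 to 3 and 7 to 10 for neighbouring genes higher and lower. The cause of these moves was not tested.

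Deviations of same-numbered libraries of the 2 genotypes had correlations of 0.104, -0.159 and -0.175. Across numbers, PA1flox/flox 1 and 3 with PA1-/- 1 and 2 gave 0.109 to 0.146. PA1flox/flox 2 with PA1-/- 3 gave 0.211, and the other pairs across numbers gave -0.136 and -0.17. Deviations were taken from the mean of each genotype, which holds a close pair and 1 library apart. The signs therefore follow largely from the value of PA1flox/flox 2 with PA1-/- 3. They cannot show whether the replicate numbers pair the samples. The labels name no grouping of PA1flox/flox 2 with PA1-/- 3, no fit used it as a block, and its part in the results was not tested. Depth limits *Krt7*, *Bnc1*, *Grhl2* and other genes at or near the floor of 3 counts, where a difference could not be seen. The deposited counts do not give the strand setting or the animals behind a library.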
